A study of Mus musculus with 31 samples.

Results

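Socs3 and 6 other genes of interleukin 6 (IL-6) and STAT3 signalling were followed in regulatory T cells (Tregs) of tumor-bearing and healthy mice. The 7 genes, Il6ra, Il6st, Il21r, Il27ra, Stat3, Socs3 and Pim1, are 7 of the 24594 genes in the deposited count table. They were chosen by gene symbol with earlier results of these data known, among them the higher Socs3 in Tregs of tumor-bearing mice. For that reason the values of Socs3 between tumor-bearing and healthy mice are given as a description, with no test. The study sorted Tregs from tumor-bearing KEP mice (K14cre;Cdh1F/F;Trp53F/F, with spontaneous mammary tumors of 225 mm2) and from tumor-free WT littermates (wt;Cdh1F/F;Trp53F/F). Both genotypes were on the FVB/N background and carried the floxed Cdh1 and Trp53 alleles; WT mice lacked the Cre. The keratin 14 promoter drives the Cre in epithelium, so T cells are not its intended target. The groups were KEP and WT blood, KEP and WT spleen, KEP and WT lung, KEP tumor-draining lymph node and WT lymph node, and KEP tumor and WT mammary gland. Each group held 3 libraries, and WT mammary gland held 4. A KEP library came from 1 mouse and a WT library from a pool of 3 mice, so WT libraries average over animals. Ages are not given in the sources used here.

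Interleukin 6 binds its receptor chain (Il6ra), which pairs with the signalling chain gp130 (Il6st). Interleukin 27 uses gp130 with its own chain (Il27ra), and interleukin 21 uses Il21r with the common gamma chain. Janus kinases on these receptors phosphorylate STAT3, which enters the nucleus and switches on target genes. Socs3 is a STAT3 target whose protein blocks gp130 receptors, and Pim1, a serine/threonine kinase, is a target of both STAT3 and STAT5. In T cells IL-6 with STAT3 favours the Th17 program, and activated T cells are known to carry less IL-6 receptor.

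The sort took live CD45+ CD3+ CD4+ CD8- CD25+ cells and had no FOXP3 gate. Library totals ran from 8154765 to 15258958 counts. Foxp3, the transcription factor that defines Tregs, was at 715.8 CPM or more in every library of blood, spleen, lung and lymph node. CPM are counts scaled to the library total, with TMM factors over all 31 libraries. The summed CPM of 10 pan-T genes was 83.3% to 104% of the WT spleen mean in those 24 libraries. It was 105%, 59.95% and 31.6% in the 3 KEP tumor libraries and 7.80%, 33.1%, 2.90% and 3.65% in the 4 WT mammary gland libraries. Replicates of tumor and mammary gland also differed more: 22.7 to 188.9 chi-square per degree of freedom between pairs, against 4.67 to 17.49 elsewhere. For that reason tumor and mammary gland were fitted apart from the 24 other libraries. In sorted bulk samples fewer cells of a type and less RNA per cell cannot be told apart. Each title date occurs in 1 genotype only, so title date and genotype cannot be told apart.

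Promoter windows, 250 bases before to 50 after the RefSeq start site, were found for 6 of the 7 genes in RefSeq (GRCm38.p6). They were searched on both strands for the STAT motif TTCNNNGAA and for its longer form, TTC and GAA with 4 bases between them. Among 32851 RefSeq promoter windows, 8.3% held the first form and 6.95% the second. Of the windows of the 6 genes, Socs3 held 1 match to the first form, at positions -154 to -146 from the start site, and no other match was found. That window lies wholly inside the Socs3 gene as the deposited table gives it (chromosome 11, 117966079 to 117970047), since the RefSeq start site is inside the longer deposited gene. The window of Socs3 is shown because its gene is the centre of the account, and that of Pim1 because Pim1 was the other gene higher in KEP spleen. Capitals mark the match.
Socs3 (chr11:117969317-117969616, minus strand): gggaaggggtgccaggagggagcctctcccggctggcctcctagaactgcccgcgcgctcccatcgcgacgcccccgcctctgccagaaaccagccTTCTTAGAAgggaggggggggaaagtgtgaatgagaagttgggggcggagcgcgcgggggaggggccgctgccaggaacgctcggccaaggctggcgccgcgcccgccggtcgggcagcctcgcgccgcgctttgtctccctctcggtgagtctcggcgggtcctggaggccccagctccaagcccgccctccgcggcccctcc
Pim1 (chr17:29490535-29490834, plus strand): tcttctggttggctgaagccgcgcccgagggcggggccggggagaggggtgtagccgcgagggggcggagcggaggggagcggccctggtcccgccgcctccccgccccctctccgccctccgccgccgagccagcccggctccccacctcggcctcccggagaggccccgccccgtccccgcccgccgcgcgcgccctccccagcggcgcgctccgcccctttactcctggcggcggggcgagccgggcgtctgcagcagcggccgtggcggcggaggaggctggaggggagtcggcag
GC content was 73.3% in the Socs3 window and 81.3% in this Pim1 window. A match is a description of the letters and says nothing of binding.

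On the scale of CPM per kilobase of exon, levels can be set between genes. In WT spleen Il27ra stood at 134, Pim1 at 110, Il21r at 96.6, Socs3 at 70.4, Stat3 at 37.7, Il6ra at 29.1 and Il6st at 25.4 CPM per kilobase. In KEP spleen Pim1 came first at 198 and Socs3 second at 144 CPM per kilobase, ahead of Il27ra at 122. All 7 genes passed the filter on low counts in every fit.

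The account of KEP against WT begins with the receptors. Il6ra, the IL-6 binding chain, was lower in KEP than in WT Tregs of blood and lung, while Il6st, Il21r and Il27ra were not called in any of the 4 tissues. In blood the Il6ra level was 179, 219 and 222 CPM in KEP libraries, against 243, 309 and 258 CPM in WT libraries. All KEP values lay below all WT values, and the log2 fold change was -0.41 (SE 0.13, edgeR adjusted p = 0.0258). In lung Il6ra stood at 160.0, 234 and 217 CPM in KEP libraries and 248, 274 and 286 CPM in WT libraries, again without overlap (-0.41, SE 0.13, edgeR adjusted p = 0.0259). In spleen the Il6ra libraries of both genotypes overlapped, at 224 to 249 CPM in KEP and 224 to 281 CPM in WT (log2 fold change -0.10, SE 0.13), as they did in lymph node, at 279.8 to 320.2 CPM in KEP and 312 to 379 CPM in WT (-0.22, SE 0.13). The gene lies on chromosome 3 from 89869324 to 89913162 in the deposited table and shares 242 exonic bases with the antisense gene Gm42809, so its counts are uncertain where counting ignored strand. The blood call was lost without WT blood replicate 2 (-0.29, adjusted p = 0.149) or KEP blood replicate 1 (-0.30, adjusted p = 0.146). The lung call was lost without WT lung replicate 2 (-0.39), WT lung replicate 3 (-0.36) or KEP lung replicate 1 (-0.26, adjusted p = 0.184), and with only the libraries compared (-0.40, adjusted p = 0.0655).

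Il6st, the gene of gp130 (chromosome 13, 112464070 to 112510086), had log2 fold changes between -0.10 and 0.11 in the 4 tissues, each with an SE of 0.17. In lung its KEP libraries stood at 487, 551 and 332 CPM and its WT libraries at 372, 457 and 429 CPM. The KEP libraries therefore spread around the whole WT range. Il21r, the interleukin 21 receptor (chromosome 7, 125603429 to 125633570), had log2 fold changes between -0.01 and 0.10, each with an SE of 0.11. In spleen it stood at 332, 329 and 299 CPM in KEP libraries, against 348, 323 and 292 CPM in WT libraries, with full overlap. In lymph node it ran from 293.7 to 301 CPM in KEP and from 279 to 291.8 CPM in WT. These libraries did not overlap, and the value of 0.06 was not called (edgeR adjusted p = 0.848). Il27ra, the interleukin 27 receptor (chromosome 8, 84030287 to 84042575), was on the low side in KEP in each of the 4 tissues, from -0.05 in lymph node to -0.18 in blood (SE 0.07 each), and none of these values passed. In spleen its libraries did not overlap, at 427, 416 and 436 CPM in KEP and 485, 464 and 453 CPM in WT (-0.13, edgeR adjusted p = 0.354). Without WT blood replicate 2 the blood value was -0.23 (adjusted p = 0.0446), and without KEP lung replicate 3 the lung value was -0.24 (adjusted p = 0.0339). Il27ra shares 2 exonic bases with Palm3.

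Stat3, the transducer of these receptors (chromosome 11, 100885098 to 100939540), was higher in KEP Tregs of blood and lung. In blood it stood at 448, 468 and 342 CPM in KEP libraries, against 302, 325 and 306 CPM in WT libraries. The groups did not overlap, and the log2 fold change was 0.41 (SE 0.12, edgeR adjusted p = 0.017). In lung the levels were 666, 664 and 453 CPM in KEP and 388, 433 and 419 CPM in WT, with 0.51 on the log2 scale (SE 0.12, edgeR adjusted p = 0.0039). In spleen the KEP libraries, at 484, 458 and 388 CPM, also lay above the WT libraries, at 358, 369 and 351 CPM, but the value of 0.30 (SE 0.12) was not called (edgeR adjusted p = 0.16). In lymph node Stat3 ran from 371 to 395 CPM in KEP and from 360.4 to 382 CPM in WT (0.04, SE 0.12). The blood call was lost without WT blood replicate 3 (0.40, adjusted p = 0.0533), KEP blood replicate 1 (0.37) or KEP blood replicate 2 (0.33, adjusted p = 0.0718). The lung call was kept in each of the 6 fits that left out 1 lung library (0.43 to 0.68). Stat3 shares 72 exonic bases with Stat5a on the other strand; Stat5a itself was lower in KEP lung (log2 fold change -0.49, edgeR adjusted p = 0.00152).

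Socs3, the feedback inhibitor (chromosome 11, 117966079 to 117970047, with no overlapping gene), had its highest mean among the 4 tissues in KEP spleen. There it stood at 468, 436 and 349 CPM, against 238, 200.5 and 173 CPM in WT spleen. The lowest KEP library lay above the highest WT library, and the log2 fold change was 1.04 (SE 0.14), a fold of 2.05. In blood Socs3 was at 322, 385 and 252 CPM in KEP libraries, against 161, 189 and 167 CPM in WT libraries (0.87, SE 0.14, a fold of 1.83). In lymph node it was at 155, 154 and 163 CPM in KEP and 116, 86.5 and 85.4 CPM in WT (0.72, SE 0.14, a fold of 1.65). Both of these tissues were also without overlap. Lung stood apart: 347, 323 and 317 CPM in KEP libraries overlapped 336, 341 and 399 CPM in WT libraries (-0.13, SE 0.14).

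**Figure D1:**
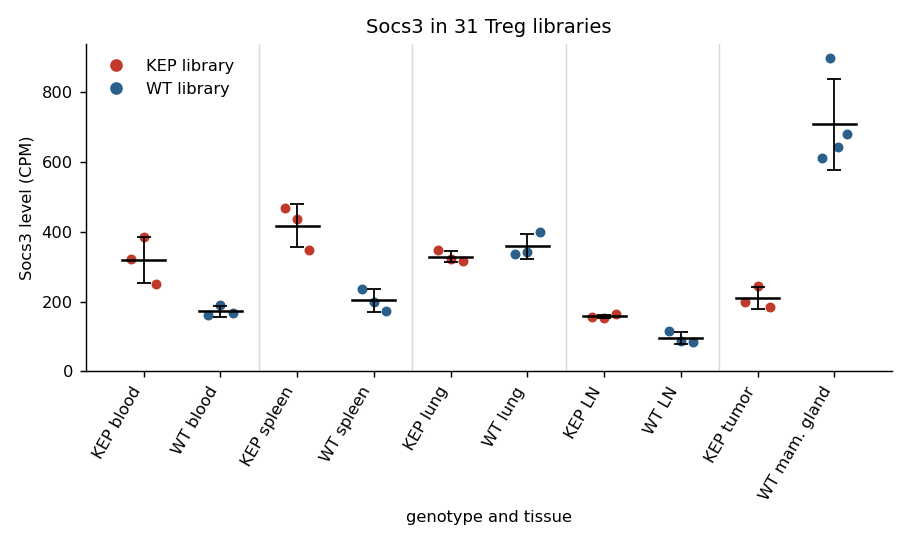
Socs3 level (CPM, vertical axis) in each of the 31 Treg libraries by genotype and tissue (LN, lymph node; mam. gland, mammary gland); points are libraries, horizontal bars are group means and whiskers are SD. KEP points lie above WT points in blood, spleen and lymph node, overlap them in lung, and tumor points (186 to 245 CPM) lie below mammary gland points (611 to 897 CPM).

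The difference between tissues can be read from the same fit. The KEP-WT log2 difference of Socs3 in lung minus that in spleen was -1.17 (SE 0.20), that in blood minus spleen -0.17 (SE 0.20) and that in lymph node minus spleen -0.32 (SE 0.20). These Socs3 values belong to the contrasts that led to its choice and carry no test. With each spleen or lung library left out in turn, the lung minus spleen value ran from -1.29 to -1.06, again without a test.

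Pim1, the kinase gene (chromosome 17, 29490812 to 29496111), was higher in KEP Tregs of spleen and blood. It stood at 686, 601 and 712 CPM in KEP spleen, against 389.95, 399.5 and 324 CPM in WT spleen. The groups were far apart, with a log2 fold change of 0.84 (SE 0.10, edgeR adjusted p = 9.51e-06), a fold of 1.80. In blood the levels were 1289.5, 1078 and 1207 CPM in KEP, against 936, 931 and 776 CPM in WT (0.41, SE 0.10, edgeR adjusted p = 0.00579). In lymph node 428, 413 and 419 CPM in KEP lay above 372, 347 and 295 CPM in WT, and the value of 0.32 (SE 0.10) did not pass (edgeR adjusted p = 0.136). Lung had the highest Pim1 of the 4 tissues and no called difference: 1809, 1896 and 1589 CPM in KEP overlapped 1655, 1761 and 1706 CPM in WT (0.04, SE 0.10). The spleen and blood calls were kept in each of the 6 fits per tissue that left out 1 library. Pim1 shares 488 of its 3362 exonic bases with the antisense gene Gm26885, so its counts too are uncertain where counting ignored strand.

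The KEP-WT difference of Pim1 was smaller in lung than in spleen by 0.81 on the log2 scale (-0.81, SE 0.14, edgeR adjusted p = 0.0353). Leaving aside Socs3, Pim1 and Klf2 (-0.99), a transcription factor of T cell trafficking, were the genes called among 12825, and 0.0234% of all genes were called. Klf2 is named because the count was this small. The Pim1 call was narrow: it was lost with RLE factors (adjusted p = 0.052), a minimum count of 50 (adjusted p = 0.063) or only the libraries compared (adjusted p = 0.139), and in 9 of 12 fits that left out 1 library, where the value ran from -0.87 to -0.71. Those libraries were WT spleen replicates 2 and 3, KEP spleen replicates 1 and 3, WT lung replicates 1, 2 and 3 and KEP lung replicates 1 and 3. It held with DESeq2 (adjusted p = 6.71e-05) and with the title date as a random replicate block (adjusted p = 0.00172). For blood against spleen edgeR called 0% of genes (1004 at an unadjusted p under 0.05, 14 with DESeq2, 0 with limma-voom), and for lymph node against spleen 0.125%. None of the 6 genes other than Socs3 was called in these 2 tests, with Pim1 at -0.43 and -0.52 (edgeR adjusted p = 0.483 and 0.288). Pim1 was the only one of the 6 at an unadjusted p under 0.05 in each, and none was called with DESeq2 or limma-voom.

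**Figure D2:**
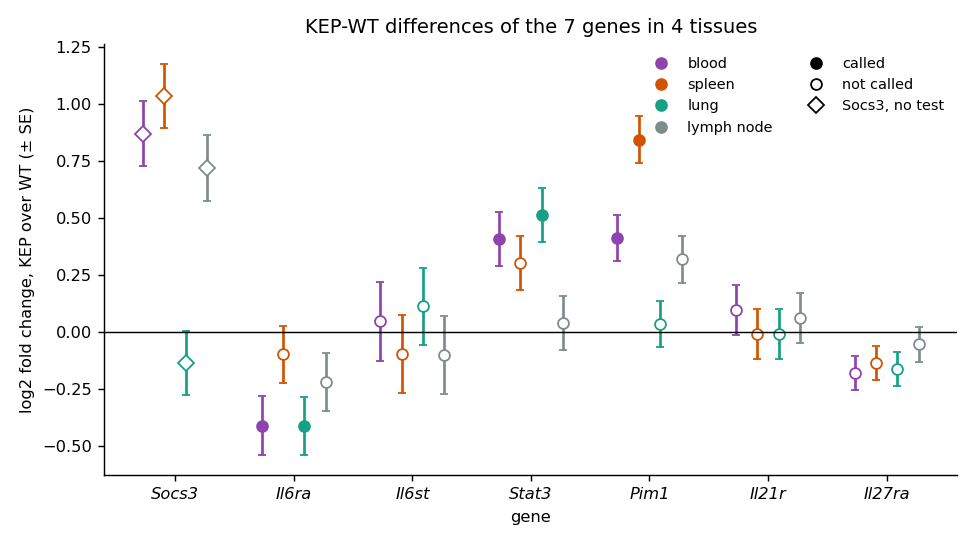
Log2 fold change of KEP over WT (vertical axis, points with SE whiskers) for the 7 genes in blood, spleen, lung and lymph node; filled circles passed the edgeR test at an adjusted p under 0.05, open circles did not, and diamonds mark Socs3, which was not tested. Socs3 and Pim1 stand highest in spleen (1.04 and 0.84) and near 0 in lung (-0.13 and 0.04).

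Counted without Socs3, 2 of 6 genes were higher in KEP blood and 1 lower, where 9.88% of all genes tested were higher and 10.3% lower. In spleen 1 of 6 was higher and 0 lower, against 3.3% and 0.959% of all genes. In lung 1 was higher and 1 lower, against 9.61% and 10.3%. In lymph node edgeR called none of the 6 (1 at an unadjusted p under 0.05, Pim1; 0 with DESeq2 and 0 with limma-voom), against 0.663% higher and 0.452% lower among all genes. With 6 genes such counts cannot be set apart from the background. All 6 of these calls were lost when the tumor and mammary gland libraries were added to the fit; for Pim1 the log2 fold changes were then 0.84 in spleen (adjusted p = 0.362) and 0.44 in blood (adjusted p = 0.486). With sorted cell number as a covariate 1 of the 3 blood calls was left: Pim1 was then 0.36 (adjusted p = 0.0681) and Il6ra -0.19 (adjusted p = 0.41). With no filter on low counts Stat3 passed in spleen (0.32, adjusted p = 0.0367) and Pim1 in lymph node (0.33, adjusted p = 0.0468).

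**Figure D3:**
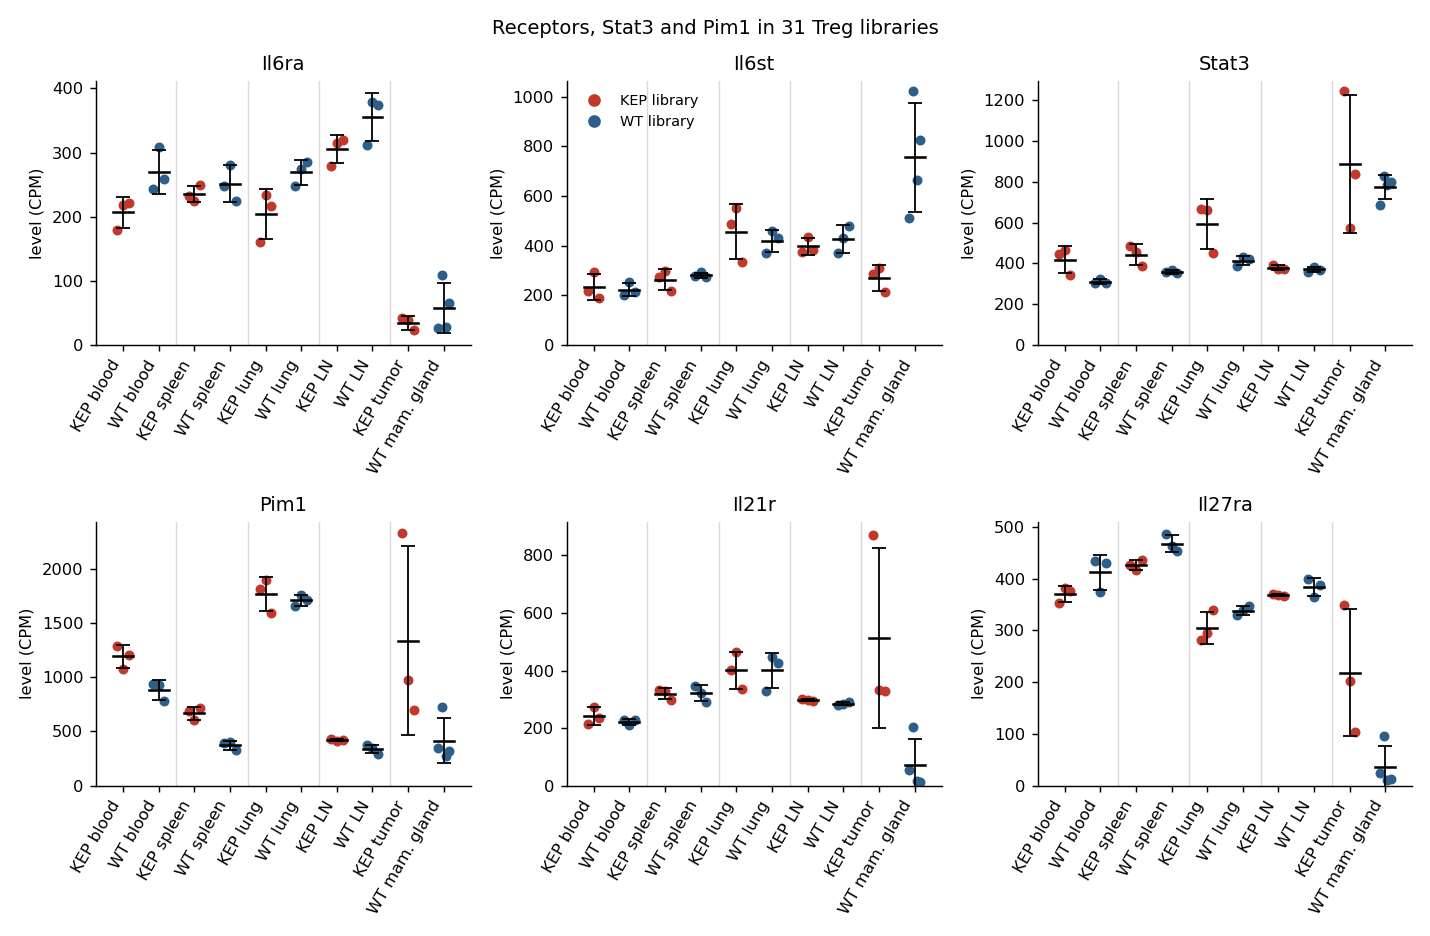
Levels (CPM, vertical axes, each from 0) of Il6ra, Il6st, Stat3, Pim1, Il21r and Il27ra in the 31 Treg libraries; points are libraries, bars are means and whiskers are SD. Among blood, spleen, lung and lymph node Pim1 is highest in lung (1589 to 1896 CPM over both genotypes); 1 tumor library stands above these, at 2326 CPM.

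Other measures moved beside these values. Foxp3 was higher in KEP blood (0.76, SE 0.11), spleen (0.63, SE 0.11) and lung (0.50, SE 0.11), each past the edgeR test (adjusted p = 5.15e-05, 0.000581 and 0.00223), and stood at 0.21 in lymph node (adjusted p = 0.387). Of 8 Treg identity genes 5 were called higher in KEP blood, 3 in spleen, 4 in lung and 0 in lymph node, and 0 lower. Of all genes tested 9.88%, 3.3%, 9.61% and 0.663% were called higher in these tissues. The summed macrophage and monocyte genes (10) ran from 17.2 to 37.6 CPM in KEP spleen, against 8.96 to 12.8 CPM in WT spleen, with Cd14 at 0 in WT. The summed neutrophil genes (8) ran from 9.38 to 90.1 CPM in KEP spleen and 9.08 to 15.3 CPM in WT spleen, where S100a9, Csf3r, Cxcr2, Retnlg and Ngp were at 0. In lung the macrophage sum went the other way, at 40.3 to 83.9 CPM in KEP and 104 to 177 CPM in WT, with 1 gene called higher and 3 lower. In blood it was 49.6 to 81.6 CPM in KEP and 42.7 to 52.7 CPM in WT, with 1 gene higher, 2 lower and C1qa at 0 in both genotypes. In lymph node it was higher in KEP without overlap, at 16.8 to 21.4 CPM in KEP and 7.91 to 15.98 CPM in WT. The summed B cell genes (7) were higher in KEP without overlap in blood (824 to 998 CPM in KEP, 601 to 729 CPM in WT), lung (507 to 542 CPM in KEP, 355 to 454 CPM in WT) and lymph node (859 to 939 CPM in KEP, 619 to 712 CPM in WT), and overlapped in spleen. The summed CD8 T and NK genes (7) were lower in KEP without overlap in lung (51.5 to 85.3 CPM in KEP, 98.3 to 133 CPM in WT) and lymph node (33.7 to 37.5 CPM in KEP, 48.0 to 56.8 CPM in WT). The same held in spleen by a narrow margin (88.4 to 180.8 CPM in KEP, 181.4 to 297 CPM in WT). They overlapped in blood (44.9 to 150.5 CPM in KEP, 85.04 to 267 CPM in WT). Socs3 itself stood at 349 to 468 CPM in KEP spleen. Of the 7 neutrophil genes tested none was called by edgeR between KEP and WT spleen, and of the 10 macrophage and monocyte genes 1 was higher there. The part of these cells in the results was not tested.

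Between tissues Socs3 was tested, since that contrast was not itself used to choose it. The same libraries, however, entered the KEP against WT contrasts, so the p-values below are not independent of the choice of Socs3. In WT mice it was higher in lung than in spleen (0.82, SE 0.14, edgeR adjusted p = 5.78e-05) and lower in lymph node (-1.08, SE 0.14, edgeR adjusted p = 2.85e-05), while blood gave -0.23 (SE 0.14, edgeR adjusted p = 0.24), and -0.54 with sorted cell number as a covariate (adjusted p = 0.0435). In KEP mice Socs3 was lower than in spleen in all 3 tissues: -0.40 in blood (edgeR adjusted p = 0.041), -0.35 in lung (edgeR adjusted p = 0.0427) and -1.39 in lymph node (edgeR adjusted p = 1.71e-06), each with an SE of 0.14. The lymph node calls, and the WT lung call, were kept in each fit without 1 library. The KEP blood call was lost without KEP spleen replicate 1, KEP spleen replicate 2, KEP blood replicate 1 or KEP blood replicate 3 (-0.40 to -0.25), and with only the libraries compared (adjusted p = 0.126). The KEP lung call was lost without KEP spleen replicate 1, KEP spleen replicate 2 or any of the 3 KEP lung libraries (-0.38 to -0.25), and with RLE factors (-0.31) or DESeq2 (adjusted p = 0.0634).

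Over the 10 groups the order of mean Socs3 levels was WT mammary gland (708 CPM), KEP spleen (418), WT lung (358), KEP lung (329), KEP blood (319.7), KEP tumor (210.5), WT spleen (204), WT blood (172), KEP lymph node (158) and WT lymph node (95.9). Neighbours in that order overlapped except at 3 steps, which followed mammary gland, KEP blood and KEP lymph node. The highest mean was 7.38 times the lowest.

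Of the 7 genes Pim1 differed most from spleen in blood and lung. It was higher in lung than in spleen by 2.20 (SE 0.11) in WT mice and 1.398 (SE 0.10) in KEP mice, and higher in blood by 1.25 in WT and 0.82 in KEP (SE 0.10 each), all past the edgeR test (largest adjusted p = 2.87e-06). In lymph node it was lower than in spleen in KEP mice (-0.65, SE 0.10, edgeR adjusted p = 0.000157) and not called in WT (-0.13, SE 0.10). Lung differed from spleen in handling, as the labels' protocols give a Liberase digestion for lungs and none for spleens. All 20 genes of a dissociation stress list were called higher in lung than in spleen in both genotypes. Of all genes tested 44.9% in WT and 48.1% in KEP were called there in either direction. The summed level of the 20 stress genes was 15258 to 16462 CPM in KEP lung and 16904 to 19662 CPM in WT lung, against 2469 to 3129 CPM in KEP spleen and 2588 to 2947 CPM in WT spleen. The part of handling in the lung values of Socs3 and Pim1 was not tested.

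Among the receptors the gp130 chain was higher in lung than in spleen, by 0.58 in WT mice (edgeR adjusted p = 0.0093) and 0.79 in KEP mice (edgeR adjusted p = 0.000756), both with an SE of 0.17. It was also higher in lymph node, by 0.61 in WT and 0.60 in KEP, calls that were each lost in 5 of 6 fits without 1 library: the WT one without WT spleen replicates 1, 2 or 3 or WT lymph node replicates 2 or 3 (lowest 0.51), the KEP one without KEP spleen replicates 1 or 3 or any KEP lymph node library (lowest 0.47). Il6ra was higher in lymph node than in spleen by 0.51 in WT (SE 0.13, edgeR adjusted p = 0.011) and 0.39 in KEP (SE 0.13, edgeR adjusted p = 0.0481). The WT call was lost without WT spleen replicate 3 or WT lymph node replicates 2 or 3 (lowest 0.43), and the KEP call without any 1 of the 6 libraries (0.34 to 0.45). Il21r was lower in blood than in spleen, by -0.53 in WT and -0.42 in KEP, the KEP call being lost without KEP blood replicate 1 (-0.34). It was higher in lung by 0.32 in both genotypes, calls lost without WT spleen replicate 3 or WT lung replicates 2 or 3 (lowest 0.24) and without KEP spleen replicate 3 or KEP lung replicate 2 (lowest 0.20). Both were also lost with upper-quartile factors (0.21 in WT, adjusted p = 0.111, and 0.20 in KEP, adjusted p = 0.124). Il27ra was lower in lung than in spleen, by -0.46 in WT (edgeR adjusted p = 1.69e-05) and -0.49 in KEP (edgeR adjusted p = 7.31e-06), and this was kept without any 1 library. It was also called lower in WT lymph node (-0.28), a call lost without WT spleen replicates 1 or 2 or WT lymph node replicate 2 (the smallest being -0.25), and in KEP blood (-0.22), a call lost without any KEP spleen library, KEP blood replicate 1 or KEP blood replicate 3 (-0.23 to -0.18). Stat3 was higher in KEP lung than in KEP spleen (0.42, SE 0.12, edgeR adjusted p = 0.00518) and not called in WT lung (0.21, SE 0.12); the KEP call was lost with only the libraries compared (0.44, adjusted p = 0.0511).

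In these tests 2 of 7 genes were called for WT blood, 5 for WT lung and 4 for WT lymph node against spleen, where 25.5%, 44.9% and 8.97% of all genes tested were called. For KEP mice the counts were 4 for blood, 6 for lung and 4 for lymph node, against 24.6%, 48.1% and 11.1% of all genes. The tissues share the spleen libraries as their base. With the title date as a replicate block the WT blood count was 5, adding Il6st (-0.34), Stat3 (-0.20) and Il27ra (-0.18). The block also added Stat3 in WT lung (0.20), Il6ra in KEP lung (-0.23) and Il27ra in KEP lymph node (-0.20).

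Libraries sorted as Tregs from tumor were set against those from healthy mammary gland, the tissue in which the tumors arise. The pan-T level was 31.6% to 104.5% of the WT spleen mean in tumor and 2.90% to 33.1% in mammary gland. With TMM factors the gp130 chain was lower and Pim1 higher in tumor. Scaled to the pan-T genes, Pim1 was -1.62 (edgeR adjusted p = 0.156). Il6st stood at 286, 311 and 211 CPM in tumor libraries, against 512, 1021, 665 and 824 CPM in mammary gland, without overlap (-1.38, SE 0.29, edgeR adjusted p = 0.016). With sorted cell number as a covariate neither gene was called, with Il6st at -1.63 (adjusted p = 0.166) and Pim1 at 1.56 (adjusted p = 0.399). Pim1 stood at 2326, 973 and 700.1 CPM in tumor and 342, 721, 272.0 and 324 CPM in mammary gland (1.80, SE 0.53, edgeR adjusted p = 0.0455). The lowest tumor library lay just below the highest mammary gland library, and the Pim1 call was lost without KEP tumor replicate 1 (1.09) or 2 (2.01), or without WT mammary gland replicate 1 (1.73), 3 (1.63) or 4 (1.69). Socs3 was at 200.5, 245 and 186 CPM in tumor, against 611, 897, 643 and 680.0 CPM in mammary gland (-1.65, SE 0.22, no test).

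The remaining genes were not called here by edgeR. Il21r stood at 873, 334 and 329 CPM in tumor, against 54.1, 205, 17.3 and 13.5 CPM in mammary gland, with the groups apart (2.93, SE 1.00, edgeR adjusted p = 0.0695). Il27ra stood at 349, 202 and 104 CPM in tumor and 24.5, 96.0, 10.5 and 12.3 CPM in mammary gland, also apart (2.72, SE 0.87, edgeR adjusted p = 0.0571). Without WT mammary gland replicate 2, the mammary gland library with the most T cell RNA, they were 4.28 (adjusted p = 0.0128) and 3.90 (adjusted p = 0.00925), and without KEP tumor replicate 3 Il27ra was 3.07 (adjusted p = 0.0353). With all libraries limma-voom called Il21r (3.67, adjusted p = 0.0226) and Il27ra (3.22, adjusted p = 0.0177), and DESeq2 called Il27ra (2.75, adjusted p = 0.0038). Il6ra (-0.62, SE 0.54) and Stat3 (0.31, SE 0.29) overlapped between the groups. The count was 1 of 6 genes higher and 1 lower, where 11.2% of all genes tested were higher and 14% lower.

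The mix of cells moved with this comparison. Summed epithelial genes (8) ran from 170.4 to 2170 CPM in tumor, against 4966 to 6426 CPM in mammary gland. Summed milk and fat genes (8) ran from 20.9 to 2966 CPM in tumor and 3980 to 19700 CPM in mammary gland. Stroma and endothelium genes (8) ran from 4296 to 9648 CPM in tumor and 1602 to 4629 CPM in mammary gland. Summed macrophage and monocyte genes ran from 919 to 5794 CPM in tumor and 379 to 852 CPM in mammary gland, and neutrophil genes from 81.3 to 2518 CPM in tumor and 7.58 to 26.9 CPM in mammary gland, where Ly6g was at 0. When both groups were scaled to the pan-T genes in place of the library total, Pim1 turned to -1.62 (adjusted p = 0.156), Stat3 to -3.24 (adjusted p = 0.0125), Il6st was -4.82 (adjusted p = 0.00189), Il6ra -3.86 (adjusted p = 0.00651) and Socs3 -5.02, while Il21r was 0.51 and Il27ra 0.03. As a share of the summed pan-T level, Il27ra was 5.65% to 5.78% in tumor and 4.96% to 6.22% in mammary gland, with 7.19% to 7.28% in KEP spleen. Socs3 was 3.28% to 10.1% of it in tumor and 46.4% to 380.2% in mammary gland. The part of other cells in these values was not tested.

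Tumor Tregs were also set against spleen Tregs of KEP mice. Il6ra was lower in tumor: it stood at 42.3, 38.4 and 22.5 CPM in tumor, against 233, 224 and 249 CPM in KEP spleen (-2.75, SE 0.25, edgeR adjusted p = 0.0015), and it stayed lower with pan-T scaling (-1.99, adjusted p = 0.0054). Stat3 was higher, at 1248, 575 and 837 CPM in tumor, against 484, 458 and 388 CPM in KEP spleen (1.03, SE 0.32, edgeR adjusted p = 0.0384), a call lost without any 1 of the 3 KEP spleen libraries (0.93 to 1.08), with upper-quartile factors (0.92, adjusted p = 0.0513) and with the title date as a replicate block (0.96, adjusted p = 0.0548). Socs3 was lower (-0.97, SE 0.18, edgeR adjusted p = 0.00719), but with pan-T scaling it was -0.06 (adjusted p = 0.917). This test also used the KEP spleen libraries, so it is not independent of the choice of Socs3. Pim1 was 1.02 (edgeR adjusted p = 0.113) and passed with pan-T scaling (1.62, adjusted p = 0.00559), as did Il21r (0.70 and 1.35). Without KEP tumor replicate 3 Pim1 passed too (1.32, adjusted p = 0.0303), and without KEP tumor replicate 1 Il27ra, at -0.94 with all libraries, was called lower (-1.46). DESeq2 called Pim1 with all libraries (1.06, adjusted p = 0.034), and Il27ra passed with sorted cell number as a covariate (-1.47, adjusted p = 0.00899). Of the 7 genes 3 were called, against 46.8% of all genes tested. Of 10 macrophage and monocyte genes all 10 were called higher in tumor, and of 20 dissociation stress genes 17.

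Other genes of the pathway came from a list of 65 genes by role, of which 60 were tested in the 24 libraries. In KEP blood 15 were higher and 5 lower (9.88% and 10.3% of all genes), in spleen 4 and 0 (3.3% and 0.959%), in lung 11 and 5 (9.61% and 10.3%), and in lymph node 0 and 2 (0.663% and 0.452%). Their median log2 fold changes were 0.00 in blood, 0.05 in spleen, -0.01 in lung and 0.00 in lymph node, against -0.01, 0.00, -0.02 and 0.01 over all genes tested. The 12 listed STAT3 targets gave 3 higher and 2 lower in blood, 3 and 0 in spleen, 3 and 0 in lung, and 0 and 0 in lymph node. Bcl3, a nuclear partner of NF-kB, was higher in blood (1.15, SE 0.21), spleen (0.82, SE 0.20) and lung (1.00, SE 0.20). In spleen it stood at 95.5 ± 15.3 CPM in KEP and 54.2 ± 8.26 CPM in WT (SD, n = 3 each). Hif1a, the hypoxia-inducible factor, was higher by 0.80 in blood, 0.51 in spleen and 0.66 in lung, and Batf, an AP-1 factor of T cell activation, by 0.67 in blood, 0.74 in spleen and 0.83 in lung. Pim3, a relative of Pim1, was lower in blood (-0.75, edgeR adjusted p = 0.000372), as was Myc (-0.90, edgeR adjusted p = 0.000372).

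Of the 13 listed inhibitors 2 were higher and 2 lower in blood, 0 were called in spleen and lymph node, and 2 were higher and 1 lower in lung. Of all genes tested 9.88% were higher and 10.3% lower in blood, and 9.61% higher and 10.3% lower in lung. Socs4 was higher in blood (0.48, SE 0.10), while Socs7 (-0.30) and the phosphatase gene Ptpn6 (-0.42) were lower there. Of the ligands Osm, oncostatin M, was higher in blood (0.51) and lung (0.73), and Clcf1, a cytokine of the same family, was lower in blood (-0.82) and lung (-0.67). Il6 itself was at most 1.08 CPM in any library of the 24, so its level was near the limit of these depths. Both listed proteases that shed receptors were called higher in lung and blood; Adam10 was higher in lung by 0.47 (SE 0.09, edgeR adjusted p = 0.000985). Of the receptors Il10ra was higher in lung (0.73), and Il23r, at 1.65 ± 0.720 CPM in KEP and 6.08 ± 1.61 CPM in WT lymph node, was lower in lymph node (-1.86, edgeR adjusted p = 0.0146) and lung (-1.03). Of the 8 listed Th17 program genes 4 were higher in blood, 1 in spleen and 1 in lung, and 1 was lower in lymph node. The shares of all genes tested that were higher were 9.88%, 3.3% and 9.61%, and 0.452% were lower in lymph node. Il17a, a gene of this list, had no count in any library of blood, spleen or lymph node. Maf was higher in blood (0.85) and spleen (0.48), and Il1r1 was lower in lymph node (-1.38). Of the other STAT genes Stat5a and Stat6 (-0.25) were lower in lung. With all 31 libraries in the fit the list gave 7 calls in blood, 0 in spleen, 3 in lung and 0 in lymph node. The spleen count was 8 with DESeq2, 7 with no filter, with only the libraries compared or with the random replicate block, and 1 to 3 without 1 library. The lymph node count was 1 with limma-voom and 0 to 2 without 1 library, and the blood count was 7 with sorted cell number as a covariate.

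**Figure D4:**
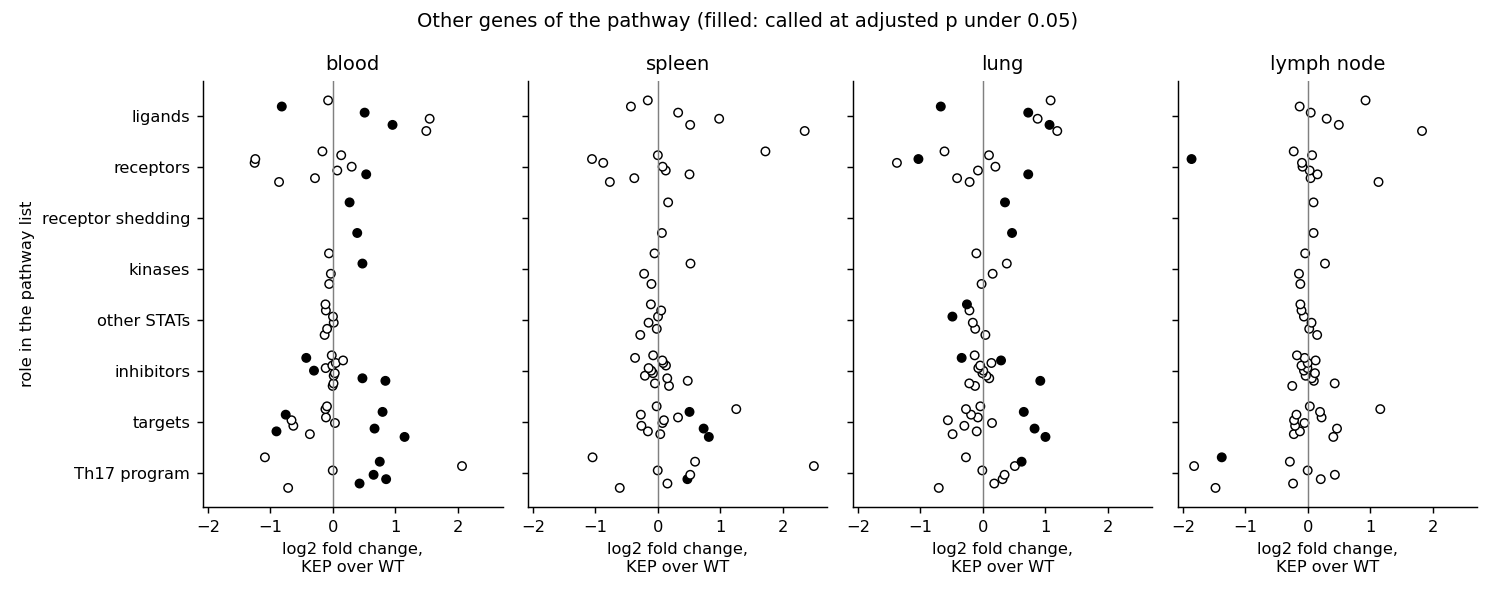
Log2 fold change of KEP over WT (horizontal axes, the same scale in each panel) for the 60 other pathway genes tested, by role (vertical axis), in blood, spleen, lung and lymph node; each point is a gene, filled where the edgeR adjusted p was under 0.05. Filled points lie on both sides of 0 in blood (15 higher, 5 lower) and lung (11 higher, 5 lower).

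In tumor against mammary gland 61 of the list were tested, with 20 higher and 6 lower (11.2% and 14% of all genes) and a median of 0.80, against -0.01 over all genes. The count of 26 was 0 with sorted cell number as a covariate, 46 with all 31 libraries and 10 to 33 without 1 library. Scaled to the pan-T genes it was 38 in either direction, in a fit that called 12394 of 14538 genes. The pan-T level was 31.6% to 104.5% of the WT spleen mean in tumor and 2.90% to 33.1% in mammary gland. The part of this gap in the list values was not tested. Osm (3.95, SE 0.73), Hif1a (2.11, SE 0.28), Adam17 (1.39, SE 0.20) and Ahr (1.18, SE 0.22) were among the higher genes. Lifr (-4.05, SE 0.66), Il6 (-2.16, SE 0.44), Il11ra1 (-1.38, SE 0.28) and Cebpb (-0.74, SE 0.15) were among the lower ones. Il6 stood at 16.04 ± 8.06 CPM in tumor (SD, n = 3) and 75.8 ± 26.5 CPM in mammary gland (SD, n = 4).

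The genes whose pattern was most like that of Socs3 over the 24 libraries were Tex2 (r = 0.82), Tcn2 (r = 0.80), Fuca2 (r = 0.80), Epsti1 (r = 0.79) and C2cd2l (r = 0.78), by Pearson correlation of log2 CPM among 4268 genes of at least 5 CPM that overlap no other gene. Among the 6 other genes Pim1 came closest (r = 0.70), then Stat3 (r = 0.57), and Il6ra ran opposite (r = -0.71). With each group's mean taken away, the closest were Mex3b (r = 0.73), Fasn, fatty acid synthase (r = 0.73), Prr12 (r = 0.71), Map3k5, a stress kinase (r = 0.71) and Hspa1b, a heat shock protein (r = 0.71). Stat3 then stood at r = 0.51, Il6st at 0.39, Il21r at 0.35, Pim1 at 0.18, Il27ra at 0.02 and Il6ra at -0.10. The libraries share tissue, genotype and title date, so these are descriptions over 24 libraries.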

How the data were processed

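The authors deposited raw read counts per gene for 24594 genes; 172 of them had no count anywhere. The kit was stranded TruSeq mRNA with single reads of 65 bases, per the labels' protocols. Per the submitters' processing notes TopHat2 2.1.0, TopHat and HTSeq were used with GRCm38; the annotation release and the strand setting are not given in the sources used here. Gene positions come from the deposited table, and exon lengths and overlaps from GENCODE M21, which held 24270 of the identifiers.

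The genes, lists and tests were chosen with earlier results of these data known. The test was edgeR 4.0.16 (R 4.3.3), quasi-likelihood F test, robust, with TMM factors, filterByExpr at a minimum count of 10, and Benjamini-Hochberg adjustment over all genes tested; a gene was called at an adjusted p under 0.05. It was fitted to the 24 libraries other than tumor and mammary gland (12825 genes), to tumor and mammary gland (14538) and to tumor and KEP spleen (12927), and was tested on simulated data. Error terms are SD over libraries and SE of log2 fold changes. Depth was 8154765 to 15258958 counts per library.

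Named genes were the 7 genes, up to 5 called pathway genes each way per KEP against WT comparison by smallest p, 5 genes most like Socs3 by each of 2 measures, Foxp3 and marker genes; some genes the rule names are not reported here. Adjusted p-values outside the main fit come from the same tool with 1 choice changed, unless DESeq2 1.42.0 or limma-voom (limma 3.58.1) is named; those for the random replicate block are limma-voom.

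Deviations from the group mean correlated over 0.1 between libraries of 1 title date in 18 of 18 KEP pairs (median r 0.428, lowest 0.232) and in 15 of 18 WT pairs (median 0.208, lowest -0.0201). The labels do not say what the date marks. It entered as a fixed replicate block between tissues and as a random one between genotypes.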

Additional observations from a re-analysis of the deposited data

Results flagged for a closer look

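Pim1 in WT mammary gland replicate 2 stood at 721.3 CPM, far from the other 3 libraries of its group (272.0 to 342 CPM). Il27ra in the same library stood at 96.0 CPM, against 10.5 to 24.5 CPM in the other 3. This library also had the highest pan-T level of its group (33.1% of the WT spleen mean, against 2.90% to 7.80%). A test of this kind marks about 1 group in 20 by chance. The KEP-WT difference of Pim1 differed between lung and spleen by the interaction test of edgeR (-0.81, SE 0.14, adjusted p = 0.0353), as given in the report.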

How the results depend on the processing

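The counts of called genes below are out of the 7 genes (6 between KEP and WT, without Socs3), and the cause of each change was not tested. With all 31 libraries in a single fit the KEP against WT counts were 0 in blood (3 otherwise), 0 in spleen (1) and 0 in lung (2), and 4 in tumor against mammary gland (2). Against spleen that fit gave 1 for WT blood (2), 3 for WT lung (5), 1 for WT lymph node (4), 0 for KEP blood (4), 2 for KEP lung (6) and 1 for KEP lymph node (4). The lung against spleen interaction count, 1 otherwise, was 0 with RLE factors, a minimum count of 50, all 31 libraries or only the libraries compared. With no filter on low counts the counts were 2 for spleen, 1 for lymph node and 2 for WT lymph node against spleen. In tumor against mammary gland it was 1 with a minimum count of 50, 4 with limma-voom and 0 with sorted cell number as a covariate. That covariate gave 1 for KEP against WT in blood and 4 for WT blood against spleen, and only the libraries compared gave 1 for KEP against WT in lung.

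Calls against spleen were also lost for Il6ra in KEP lymph node with RLE (0.37) or upper-quartile factors (0.37), for Il6st in WT (0.61) and KEP (0.60) lymph node, Il27ra in WT lymph node (-0.28) and Il27ra in KEP blood (-0.23) with no filter, and for Il27ra in KEP blood (-0.21) and Il21r in KEP lung (0.27) with sorted cells as a covariate.

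Values near 0 changed sign. Il21r between KEP and WT lung was 0.00076 with RLE factors, 0.00956 with no filter, 0.00074 with DESeq2, 0.00306 with all 31 libraries and 0.00173 with only the libraries compared, and in spleen 0.00832 with no filter. With upper-quartile factors Il6ra was -0.00737 in WT lung against spleen and Il6st -0.0545 in tumor against spleen. With sorted cells as a covariate Il6ra was -0.21 in WT blood against spleen, Il6st -0.00551 in tumor against spleen, and the Socs3 difference in blood against that in spleen 0.0246. Scaled to the pan-T genes, Stat3 was -3.24 and Pim1 -1.62 in tumor against mammary gland.

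Leaving out 1 library gave counts of 1 to 3 for KEP against WT in blood and in lung, 1 to 4 for tumor against mammary gland, 1 to 4 for WT lymph node and KEP blood against spleen, 2 to 3 for KEP lymph node and 0 to 1 for the lung interaction. Signs changed within these ranges: Il6st from -0.20 to 0.0198 in spleen, -0.0415 to 0.30 in lung and -0.14 to 0.19 in blood between KEP and WT; Il21r from -0.0759 to 0.0472 in spleen and -0.13 to 0.11 in lung; Pim1 in lung from -0.0147 to 0.11; Stat3 from -0.18 to 0.0370 in KEP blood against spleen and -0.0539 to 0.56 in tumor against mammary gland; Il6st from -0.0803 to 0.20 in tumor against spleen.

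With the title date as a replicate block 5 genes were called for WT blood against spleen. The calls it changed stand in the report, and it changed no other call of the 7 genes. As a random replicate block between genotypes it gave the same counts in blood, spleen, lung and lymph node (3, 1, 2 and 0). No paired analysis was possible for tumor against mammary gland because these libraries come from different mice of each genotype.

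The counts below run over every gene of a fit, Socs3 among them. Over all genes tested, all 31 libraries in a single fit gave 657 calls in blood (2591 otherwise), 68 in spleen (546), 469 in lung (2550), 2 in lymph node (143) and 8064 in tumor against mammary gland (3667). It gave 1198 for WT blood (3272), 297 for WT lymph node (1150), 1100 for KEP blood (3150), 247 for KEP lymph node (1420) and 9356 for tumor (6048) against spleen. DESeq2 gave 302 in lymph node, and 14, 11 and 43 for the interactions in blood, lung and lymph node against 0, 3 and 16; limma-voom gave 9 for the last, and all 31 libraries 0 for lung and for lymph node. With sorted cell number as a covariate there were 143 in tumor against mammary gland, 1160 in blood, 2153 for WT blood against spleen and 3 for the blood interaction. Only the libraries compared gave 1688 in blood, 1599 in lung, and 0 and 10 for the interactions in lung and lymph node. No filter gave 296 in lymph node and 24, 28 and 42 for the 3 interactions; for lung RLE factors gave 1, a minimum count of 50 gave 0 and the random replicate block 7. The title date as a replicate block gave 1871 for WT and 2434 for KEP lymph node against spleen. Without 1 library the counts ran from 1675 to 5394 in tumor against mammary gland, 3349 to 7984 in tumor against spleen, 1566 to 2379 in blood, 243 to 537 in spleen, 1367 to 2576 in lung and 28 to 110 in lymph node. Scaling to the pan-T genes gave 12394 in tumor against mammary gland and 3775 in tumor against spleen.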
